A study of Homo sapiens with 4 samples.

Results

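The transcription factors described here hold the identity of the intestinal epithelium and steer its cells from division to maturation. They are CDX1, CDX2, HNF4A, HNF4G, GATA6, KLF4, KLF5, KLF9 and ELF3, chosen by name as regulators of intestinal lineage and differentiation, and every probe set annotated to the symbol of 1 of them alone was taken. Of these 9 genes, 8 had such probe sets, 19 in all, among 19775 genes of the array; HNF4A was not analysed here. The cells were T84, an established line from a human colorectal carcinoma that makes polarised epithelial sheets, grown on permeable filters in transwell chambers and given 15 pmol of short RNA by transfection. Each of 4 groups was measured on a single Affymetrix U133 Plus 2.0 array of messenger RNA. What is called the 2-miRNA array came from cells that received miR-451 together with miR-338-3p, harvested on day 5. The 4-miRNA array came from cells that received these and, in addition, miR-33a and miR-210, likewise harvested on day 5. Cells of the 2 control arrays received a short RNA of little likeness to human miRNAs as a negative control and were harvested on day 5 or day 7. All groups therefore share the carcinoma line, the filter culture and a transfection, and none was left untransfected.

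The intestinal lineage is set in the endoderm by the homeobox proteins CDX1 and CDX2, and in the mature epithelium CDX2 and the nuclear receptors HNF4A and HNF4G sit together at the enhancers of enterocyte genes. GATA6, a zinc finger factor, acts beside them in the colon and in dividing crypt cells. The Krüppel-like factors bind GC-rich and CACCC-type sites: KLF5 is known for the dividing crypt, KLF4 for cells that have left the cell cycle and for goblet cells, and KLF9 as a gene induced by steroid and thyroid hormones. ELF3 is an epithelial member of the ETS family that is needed for the maturation of enterocytes. MicroRNAs reduce the amount, or the translation, of messenger RNAs with sites that pair with their seed.

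Of the transfected miRNAs, the labels name the arm of miR-338-3p alone, so its mature sequence is shown, in lower case with the seed (bases 2 to 8) in capitals; it is encoded at chr17:81125887-81125908, minus strand.
hsa-miR-338-3p: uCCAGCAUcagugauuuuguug
The windows around the annotated gene starts of KLF5 and KLF9 follow, because the largest differences of any member were on probe sets of these 2 genes. Each holds 250 bases before to 50 bases after a start, read 5′ to 3′ on the strand of the gene, from RefSeq on GRCh38.p14, with CACCC on either strand (GGGTG on the other) in capitals. KLF5 has 2 annotated starts 4029 bases apart on the plus strand, at chr13:73054726-73055025 and chr13:73058755-73059054, and KLF9 has 1 on the minus strand, at chr9:70414608-70414907.
KLF5 start 1: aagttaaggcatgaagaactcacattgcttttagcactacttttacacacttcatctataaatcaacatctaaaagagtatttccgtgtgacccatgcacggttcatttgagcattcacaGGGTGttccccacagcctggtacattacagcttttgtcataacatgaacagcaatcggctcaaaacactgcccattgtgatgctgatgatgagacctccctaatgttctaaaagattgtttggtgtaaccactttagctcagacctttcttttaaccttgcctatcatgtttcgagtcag
KLF5 start 2: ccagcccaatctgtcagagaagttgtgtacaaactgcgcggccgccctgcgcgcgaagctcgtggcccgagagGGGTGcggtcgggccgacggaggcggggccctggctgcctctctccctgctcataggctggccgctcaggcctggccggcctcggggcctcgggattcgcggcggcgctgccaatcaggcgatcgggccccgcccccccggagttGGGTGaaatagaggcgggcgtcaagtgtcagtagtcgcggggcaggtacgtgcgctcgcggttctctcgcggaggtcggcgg
KLF9: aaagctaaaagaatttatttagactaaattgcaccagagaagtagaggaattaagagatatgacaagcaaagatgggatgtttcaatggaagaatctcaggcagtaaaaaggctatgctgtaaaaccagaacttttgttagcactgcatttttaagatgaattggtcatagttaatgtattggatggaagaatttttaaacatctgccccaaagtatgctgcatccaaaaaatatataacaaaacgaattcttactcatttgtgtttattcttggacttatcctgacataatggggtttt
The upstream KLF5 window and the KLF9 window are rich in A and T, with GC contents of 40.7% and 32.7%, while the downstream KLF5 window has a GC content of 71.3%; the median over 35116 promoter windows is 58.7%. CACCC occurs at 1 place in the upstream KLF5 window, 2 places in the downstream window and no place in the KLF9 window, and 59.9% of all windows hold it. CAAAG, the half-site of HNF4 receptors, occurs at 2 places in the KLF9 window (47.5% of all windows hold it), and no member with a window holds TTTATG, a CDX-type motif that 10.6% of all windows hold. Such matches describe letters and not bound sites.

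As deposited, the miRNA arrays were brighter than the controls, with a trimmed mean signal of 147 and 150 for the 2-miRNA and 4-miRNA arrays against 76.6 and 74.3 for day 5 and day 7, so brightness and miRNA treatment cannot be told apart. Each array was scaled to a mean of 500 over the probe sets left after dropping the lowest and highest 2%. All levels below are these scaled signals, and all differences are log2 differences after adding 32, which understates differences of dim probe sets. A gene is counted as 2-fold apart where this difference is 1 or more in size, also where its signal is under the array median. The brightest member signal on any array as deposited was 3722, far under that array's highest value of 17832. The ratio of 3′ to 5′ signal, a sign of RNA integrity, was between 1.97 and 2.33 for ACTB, with no split between miRNA and control arrays. For GAPDH it was 0.962 and 0.951 on the 2-miRNA and 4-miRNA arrays and 1.02 and 0.978 on the day 5 and day 7 controls, so both miRNA arrays lay slightly below both controls, and the part of this in the differences was not tested. All 11 listed markers of colorectal epithelium, among them EPCAM, CDH1, KRT20 and VIL1, were above the median of every array, with summed signals of 204326 (day 5 control), 274619 (day 7 control), 206153 (2 miRNAs) and 217984 (4 miRNAs). The 3′ GAPDH probe set read 12949 and 14259 as deposited on the day 5 and day 7 controls, and 14071 and 13461 on the 2-miRNA and 4-miRNA arrays. After scaling it read 84506 and 95935 against 47742 and 44868. For genes that bright, scaling and miRNA treatment cannot be told apart, and such genes weigh most in these sums. Of 12 annotated markers of fibroblasts, leukocytes and endothelium, between 3 and 5 passed the array medians, with summed signals between 837 and 1084. With 1 array per group there is no test and no p-value, and precision is limited by that number. The only error measured is the SD between a gene's probe sets, from 3266 genes with exactly 2 expressed probe sets: 0.64 for the 2-miRNA array and 0.63 for the 4-miRNA array against the day 5 control, 0.49 between the controls and 0.34 between the miRNA arrays. In cultures, fewer cells that express a gene and less RNA per cell cannot be told apart.

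The gene-level picture was uneven. On the probe set with the highest mean, which stands for each gene, KLF9, GATA6 and HNF4G were at least 2-fold higher on the 2-miRNA array than on the day 5 control, while CDX1 was lower on both miRNA arrays by less than 2-fold. On the 4-miRNA array GATA6 and KLF9 were past 2-fold, and on day 7 KLF9 alone was. Thus 3 of 8 members were at least 2-fold higher with 2 miRNAs, where 8.11% of 12264 expressed genes were higher and 6.37% lower by that much. With 4 miRNAs it was 2 of 8, against 8.03% of all genes higher and 6.70% lower, and on day 7 it was 1 of 8, against 3.35% higher and 2.41% lower. No member was at least 2-fold lower in any of these comparisons. The median difference of the members was 0.31 with 2 miRNAs and 0.62 with 4, beside medians of −0.16 and −0.15 over all genes, and 0.37 on day 7 beside −0.01. These comparisons share the day 5 control array, so a low or high value on it moves them together. The shares over all genes depend on the scaling: with the same median on every array they were 10.9% higher and 3.46% lower with 2 miRNAs and 12.6% and 2.97% with 4, and with running-median centring 9.42% and 4.70%, and 9.35% and 4.70%.

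**Figure D1:**
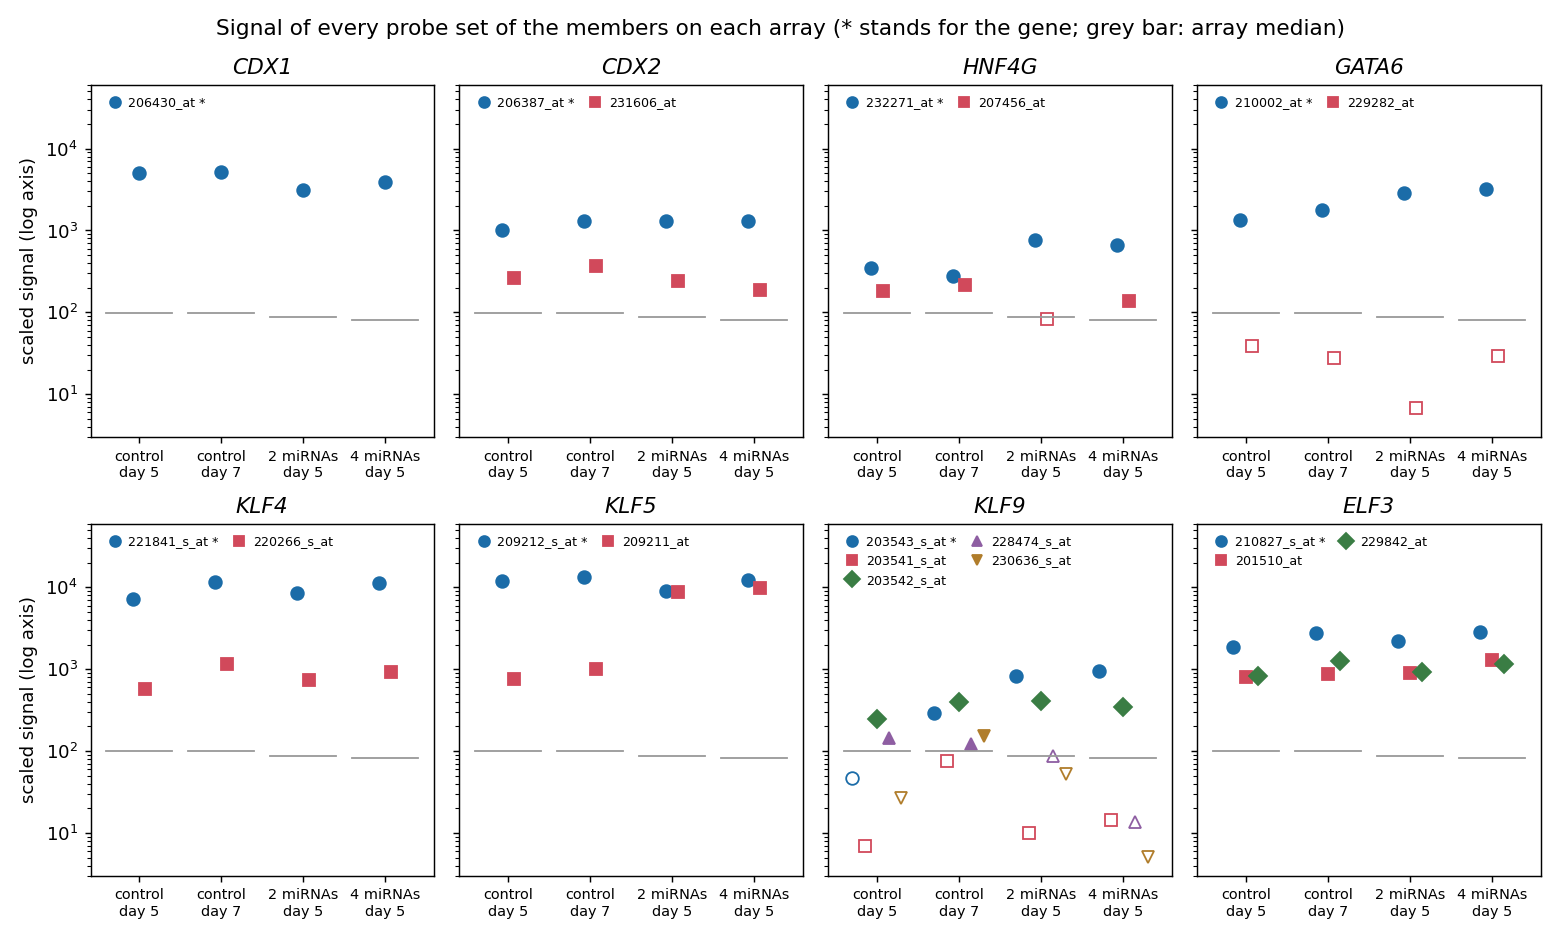
Scaled signal (log axis) of each of the 19 probe sets on each of the 4 arrays, 1 panel per gene; an asterisk marks the probe set that stands for the gene, open symbols lie under the median of their array and grey bars give that median. KLF5 209211_at is at 8779 and 9925 on the miRNA arrays and at 762 and 1020 on the controls, while KLF5 209212_s_at stays between 9060 and 13401.

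Both CDX genes, the homeobox factors that specify the hindgut, were well above the array median in all cultures. CDX1 had 1 probe set, with signals of 5056 and 5210 on the day 5 and day 7 controls, 3165 with 2 miRNAs and 3936 with 4. The controls were close to each other and both miRNA arrays lay below them. Its differences from the day 5 control were −0.67 with 2 miRNAs, −0.36 with 4 (−0.08 with the same median on every array) and 0.04 on day 7. Of all genes, 41.0% had both miRNA arrays below both controls, so that pattern is common in these data. In the order of its levels, no neighbouring arrays differed by more than the SD between probe sets. Compared directly, the 2-miRNA array was at −0.67 and −0.71 against the day 5 and day 7 controls, past the SDs of 0.64 and 0.59. With the same median on every array these differences were −0.49 and −0.53. CDX2, which in the gut is the dominant CDX gene, had signals of 1016 (day 5 control), 1309 (day 7 control), 1296 (2 miRNAs) and 1291 (4 miRNAs) on its brighter probe set. The day 5 control was the lowest and the other 3 arrays were nearly level. The dimmer probe set, 231606_at, gave 264, 373, 242 and 188 in the same order. There the day 7 control was again highest, but both miRNA arrays were below the day 5 control, with differences of −0.11 (0.06 with the same median on every array) and −0.42. Both CDX2 probe sets were thus higher on day 7, by 0.36 and 0.45, and differed in sign on the 4-miRNA array.

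HNF4G, a nuclear receptor that shares binding sites with HNF4A in enterocytes, had signals on 232271_at of 345 and 277 on the day 5 and day 7 controls, against 775 with 2 miRNAs and 670 with 4. Both miRNA arrays lay above both controls, by 1.10 and 0.89 against day 5 and by 1.39 and 1.18 against day 7. The step from the 4-miRNA array down to the day 5 control was larger than the SD between probe sets, and the steps within the miRNA pair and within the control pair were not. The dimmer probe set, 207456_at, went the other way: 181 and 214 on the day 5 and day 7 controls, 82.3 with 2 miRNAs, under the median of that array, and 138 with 4. Its differences from the day 5 control were −0.90 and −0.32, so the probe sets of HNF4G disagreed by 1.99 and 1.22 on the miRNA arrays and by 0.50 on day 7. With the median over both, its difference with 2 miRNAs was 0.10, so no direction can be given for the gene on the miRNA arrays.

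GATA6, the GATA factor of the colon and of crypt cells, had signals on 210002_at of 1353 (day 5 control), 1779 (day 7 control), 2835 (2 miRNAs) and 3254 (4 miRNAs). Both miRNA arrays exceeded both controls. Against the day 5 control the differences were 1.05 and 1.25, or 2.10-fold and 2.41-fold in signal, and the day 7 control was higher by 0.39. Against the day 7 control they were 0.66 and 0.86. The step between the day 7 control and the 2-miRNA array was larger than the SD between probe sets. Its other probe set, 229282_at, was under the median of every array, between 6.72 and 39.4, and gives no second reading. With the median over both probe sets the differences from the day 5 control were 0.08 and 0.51, no longer past 2-fold. That median takes in the dim 229282_at, so it is no second reading of GATA6 either.

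KLF4, the Krüppel-like factor of differentiated and goblet cells, was read by 2 probe sets with the same order of arrays. On 221841_s_at the signals were 7121 on the day 5 control, 8619 with 2 miRNAs, 11202 with 4 and 11716 on day 7. On 220266_s_at they were 575, 737, 936 and 1165 in that order. The day 5 control was lowest and the day 7 control highest on both. The day 7 differences were 0.72 and 0.98, those of the 4-miRNA array 0.65 and 0.67, and those of the 2-miRNA array 0.27 and 0.34. The probe sets were within 0.07 of each other on the 2-miRNA array, 0.02 on the 4-miRNA array and 0.26 on day 7. ELF3, the epithelial ETS factor, had 3 probe sets, each of them lowest on the day 5 control. On 210827_s_at its signals were 1893 on the day 5 control, 2213 with 2 miRNAs, 2879 with 4 and 2762 on day 7. On 201510_at they were 797, 899, 1280 and 886, and on 229842_at 825, 936, 1156 and 1263, in the same order. All 3 probe sets gave small positive differences with 2 miRNAs (0.17 to 0.22) and larger ones with 4 (0.47 to 0.66), and between 0.15 and 0.60 on day 7. Of the members with several expressed probe sets, KLF4 and ELF3 thus had positive differences on every probe set in all 3 comparisons with the day 5 control, and none of their log2 differences reached 1. The largest, that of KLF4 on 220266_s_at on day 7, was 2.03-fold in signal without the added 32. Both expressed probe sets of KLF9 were also positive in all 3 comparisons, but far apart in size, as given below.

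**Figure D2:**
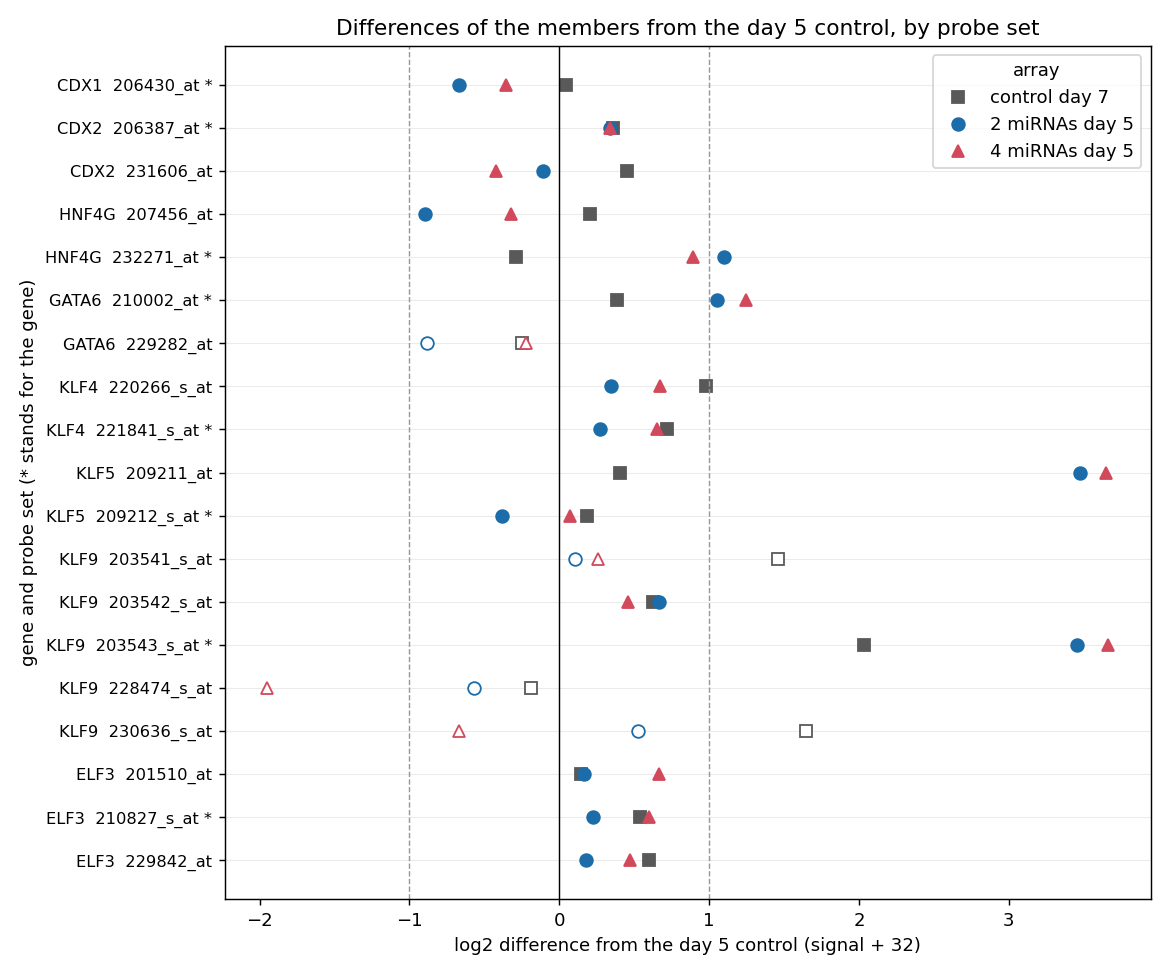
Log2 difference from the day 5 control (x axis) for each probe set (y axis) on the day 7 control, 2-miRNA and 4-miRNA arrays; open symbols are probe sets that did not pass the filter on low signal, and dashed lines mark 2-fold. KLF4 and ELF3 probe sets lie together, whereas those of KLF5, KLF9 and HNF4G lie on both sides of 0 or far apart.

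KLF5, the Krüppel-like factor of dividing crypt cells, gave the widest disagreement of any member. On 209211_at the signals were 762 and 1020 on the day 5 and day 7 controls, but 8779 with 2 miRNAs and 9925 with 4. That is 11.5-fold and 13.0-fold above the day 5 control, with log2 differences of 3.47 and 3.65. On 209212_s_at the signals were 11803 (day 5 control), 13401 (day 7 control), 9060 (2 miRNAs) and 12407 (4 miRNAs). Those differences were −0.38 and 0.07, so on this probe set the miRNA and control arrays were alike within the SD between probe sets. As deposited, before any scaling, 209211_at read 117 and 152 on the controls and 2587 and 2978 on the miRNA arrays, and 209212_s_at read 1809, 1992, 2670 and 3722. Between the controls both probe sets agreed, at 0.41 and 0.18 for day 7 against day 5, and between the miRNA arrays they also agreed, at 0.18 and 0.45. Their gap of 3.85 on the 2-miRNA array was reached by 9 of 5896 genes with several expressed probe sets, KLF5 included, or 0.153%, and the gap of 3.58 on the 4-miRNA array by 21, or 0.356%. The median gap was 0.77 and 0.75. Which stretch of the KLF5 transcript each probe set reads is not known from the files or labels. KLF5 as a gene therefore has no settled direction between miRNA and control arrays.

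**Figure D3:**
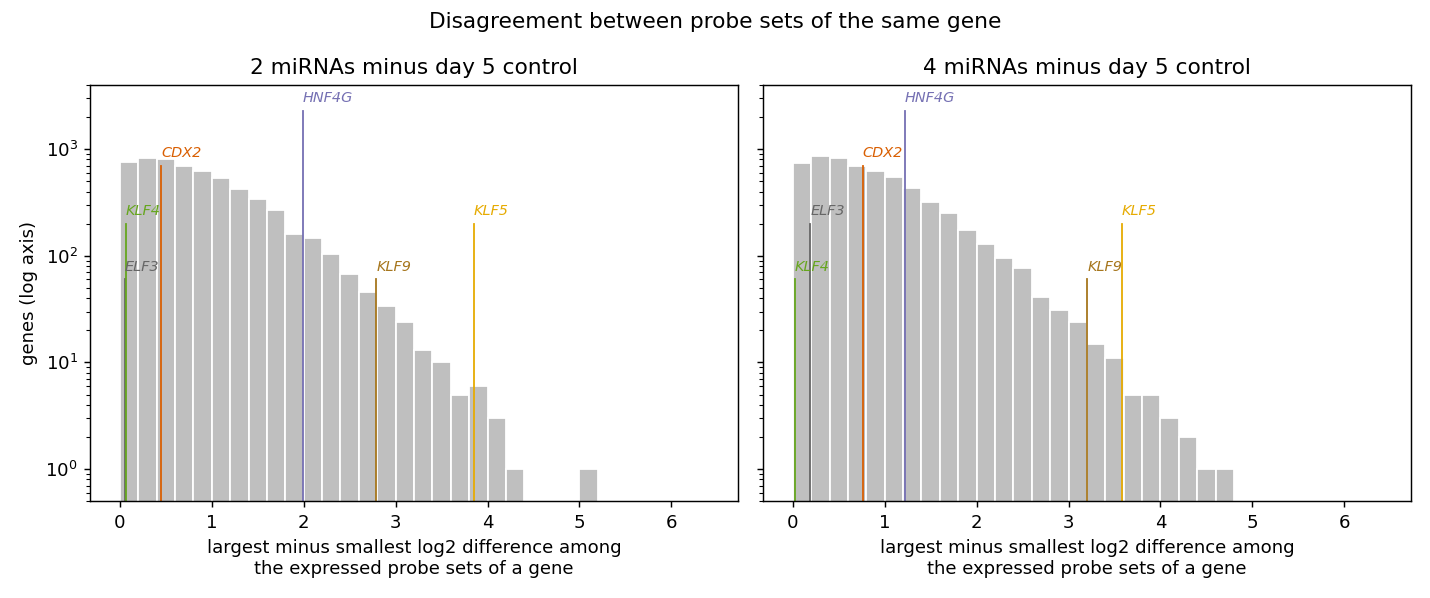
Histogram over 5896 genes of the largest minus the smallest log2 difference among the expressed probe sets of a gene (x axis; genes on a log axis), for the 2-miRNA and 4-miRNA arrays against the day 5 control, with the members that have several expressed probe sets marked by lines whose height has no meaning. KLF5 lies at 3.85 and 3.58 and KLF9 at 2.79 and 3.20, in the sparse right tail, and KLF4 and ELF3 lie under 0.2 in both panels.

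KLF9, a hormone-induced Krüppel-like factor, had 5 probe sets, of which 2 passed the filter on low signal. On 203543_s_at, the brighter by its mean, the signals were 46.3 and 288 on the day 5 and day 7 controls, 828 with 2 miRNAs and 961 with 4. The day 5 control was under the median of its array, so the folds are lower bounds against that median: at least 8.33-fold higher with 2 miRNAs, at least 9.68-fold with 4 and at least 2.90-fold on day 7. The log2 differences were 3.46, 3.66 and 2.03, and the order from 4 miRNAs and 2 miRNAs to day 7 to day 5 had steps larger than the SD between probe sets, save within the miRNA pair. On 203542_s_at the signals were 244 and 394 on the day 5 and day 7 controls, 406 with 2 miRNAs and 348 with 4. Here too the day 5 control was lowest, with differences of 0.66, 0.46 and 0.63, all under 2-fold. The other 3 probe sets were under the array median on 2 or more arrays and differed among themselves: 203541_s_at stayed between 6.92 and 75.1, 228474_s_at read 144 on the day 5 control and 13.6 with 4 miRNAs, and 230636_s_at was highest on day 7 at 152. The count of KLF9 past 2-fold rests on 203543_s_at. With 16 added in place of 32, 203542_s_at had the higher mean and stood for the gene, and its differences were 0.70, 0.48 and 0.66. With the median over all 5 probe sets they were 0.53, 0.26 and 1.46.

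The miRNA arrays were also set against the day 7 control, which had grown on the filter for 2 more days. HNF4G (1.39 and 1.18) and KLF9 (1.42 and 1.63) were at least 2-fold higher on the 2-miRNA and 4-miRNA arrays, again each on the probe set that stands for the gene. The other probe sets did not share this: HNF4G 207456_at was at −1.10 and −0.53, and KLF9 203542_s_at at 0.04 and −0.16. With the median over probe sets HNF4G was at 0.14 and 0.33 and KLF9 turned to −0.38 and −1.20. For KLF9 that median takes in probe sets that did not pass the filter on low signal. The expressed probe sets alone also disagree for both genes, so neither has a settled direction against day 7. By the representing probe set it is 2 of 8 members in each comparison, where 6.19% of all genes were higher and 4.03% lower with 2 miRNAs, and 5.63% higher and 4.15% lower with 4. With the same median on every array these shares were 8.56% and 2.41%, and 9.48% and 2.05%, and with running-median centring 7.42% and 2.95%, and 6.91% and 2.70%. The median of the members was −0.16 and 0.02, beside −0.16 and −0.15 over all genes. KLF4 was lower than on day 7 on both probe sets with 2 miRNAs (−0.44 and −0.64), and with 4 its differences were −0.06 (0.21 with the same median on every array) and −0.31. CDX2 was level with day 7 on its brighter probe set (−0.01 and −0.02) and lower on the dimmer one (−0.56 and −0.88). Over both pairs of arrays, 3 of 8 members (HNF4G, GATA6 and KLF9) had both miRNA arrays above both controls, as had 22.8% of all genes, and 1 of 8 (CDX1) had both below, as had 41.0% of all genes. HNF4G and KLF9 each had a probe set with both miRNA arrays above both controls and another with both below. The lower one of KLF9, 228474_s_at, did not pass the filter on low signal.

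Between the miRNA arrays, which addresses what miR-210 and miR-33a went with, no member was 2-fold apart, where 1.04% of all genes were higher and 1.33% lower by that much on the 4-miRNA array (1.39% and 1.11% with the same median on every array, 1.31% and 1.12% with running-median centring). Of the 8 members, 6 were higher with 4 miRNAs, as were 50.8% of all genes, with a median of 0.26 beside 0.00 over all genes. KLF5 was higher by 0.45 on 209212_s_at, KLF4 by 0.38 and 0.33, ELF3 by 0.37, 0.50 and 0.30, and CDX1 by 0.31. KLF4, KLF5 and ELF3 on the probe sets that stand for them were the members whose difference exceeded the SD of 0.34 between probe sets. The labels do not say if 15 pmol was the sum over a mix, so added miRNAs and a lower amount of the shared miRNAs cannot be told apart.

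Genes whose profile over the 4 arrays was most like that of KLF9 were MIGA1, a gene of mitochondrial fusion, MEF2D, a transcription factor, and CRIM1, a transmembrane protein. Their root mean square difference from KLF9 after centring was 0.17, 0.31 and 0.32. On the day 5 control MIGA1 (3.96) and MEF2D (14.6) were, as KLF9 was, under the array median, so their likeness there is between dim signals and their rank has no firm meaning. CRIM1 was above the median throughout and read 436 and 1086 on the day 5 and day 7 controls and 3125 and 3465 on the miRNA arrays. Most like HNF4G were EOGT, PITPNA-AS1 and ATP13A3, at 0.02, 0.03 and 0.04, but 808 genes lay within 0.3 of HNF4G and 1 within 0.3 of KLF9. A likeness over 4 arrays describes these arrays only.

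Genes reported to be switched on by CDX proteins were followed as a read-out list of 23, of which 20 were expressed. On day 7, 17 of the 20 lay above the day 5 control with a median of 0.60, 4 of them past 2-fold and CLDN2 past 2-fold lower. Of all genes, 49.3% lay above it on day 7 with a median of −0.01, 3.35% past 2-fold higher and 2.41% lower. SLC26A3, the apical chloride-bicarbonate exchanger, was higher by 3.76 (3417 against 223), TFF3, a secreted trefoil peptide, by 2.18 (12339 against 2696), and MEP1A, a brush border metalloprotease, by 1.15. ANPEP, a peptidase of the brush border, was under the median on day 5 and at least 2.54-fold higher, but its difference turned to −0.51 with the median over its probe sets. With 2 miRNAs 11 of 20 were above 0 with a median of 0.04 (3 past 2-fold higher, among them ANPEP, whose bound against the dim day 5 signal is 1.46-fold, and 2 lower), and with 4 miRNAs 12 of 20 with a median of 0.29 (5 higher, 2 lower). Of all genes, 40.6% and 41.0% were above 0 with 2 and 4 miRNAs, with medians of −0.16 and −0.15. Past 2-fold were 8.11% higher and 6.37% lower with 2 miRNAs, and 8.03% and 6.70% with 4. SLC26A3 also had the largest positive difference of the list on both miRNA arrays, 1.70 with 2 miRNAs and 2.46 with 4. Its signals there were 794 and 1365, far from the brightest of the list. With the median over its probe sets the difference with 2 miRNAs was 1.04. With 4 miRNAs ANPEP was at least 3.25-fold higher (0.13 on the log2 scale with the median over its probe sets), MEP1A was higher by 1.26 and TFF3 by 1.15. With 2 miRNAs MEP1A was at −0.39 and TFF3 at 0.44. DSC2, a desmosomal cadherin, was higher by 1.10 and 1.19 on the miRNA arrays and by 0.41 on day 7. CLDN2, the claudin of cation pores, was 3179 on the day 5 control, 1239 on day 7, 745 with 2 miRNAs and 574 with 4. ISX was at least 2.11-fold lower with 2 miRNAs than on the day 5 control. CA1 was at least 2.17-fold lower with 4 miRNAs (−0.81 on the log2 scale with the median over its probe sets). MUC2, the secreted goblet cell mucin, was 907 on the day 5 control and 1264 on day 7, against 497 and 595 with 2 and 4 miRNAs, so both miRNA arrays lay below both controls. CDX1 and CDX2 themselves were less than 2-fold apart between any of the 4 arrays, and whether the list follows them was not tested.

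**Figure D4:**
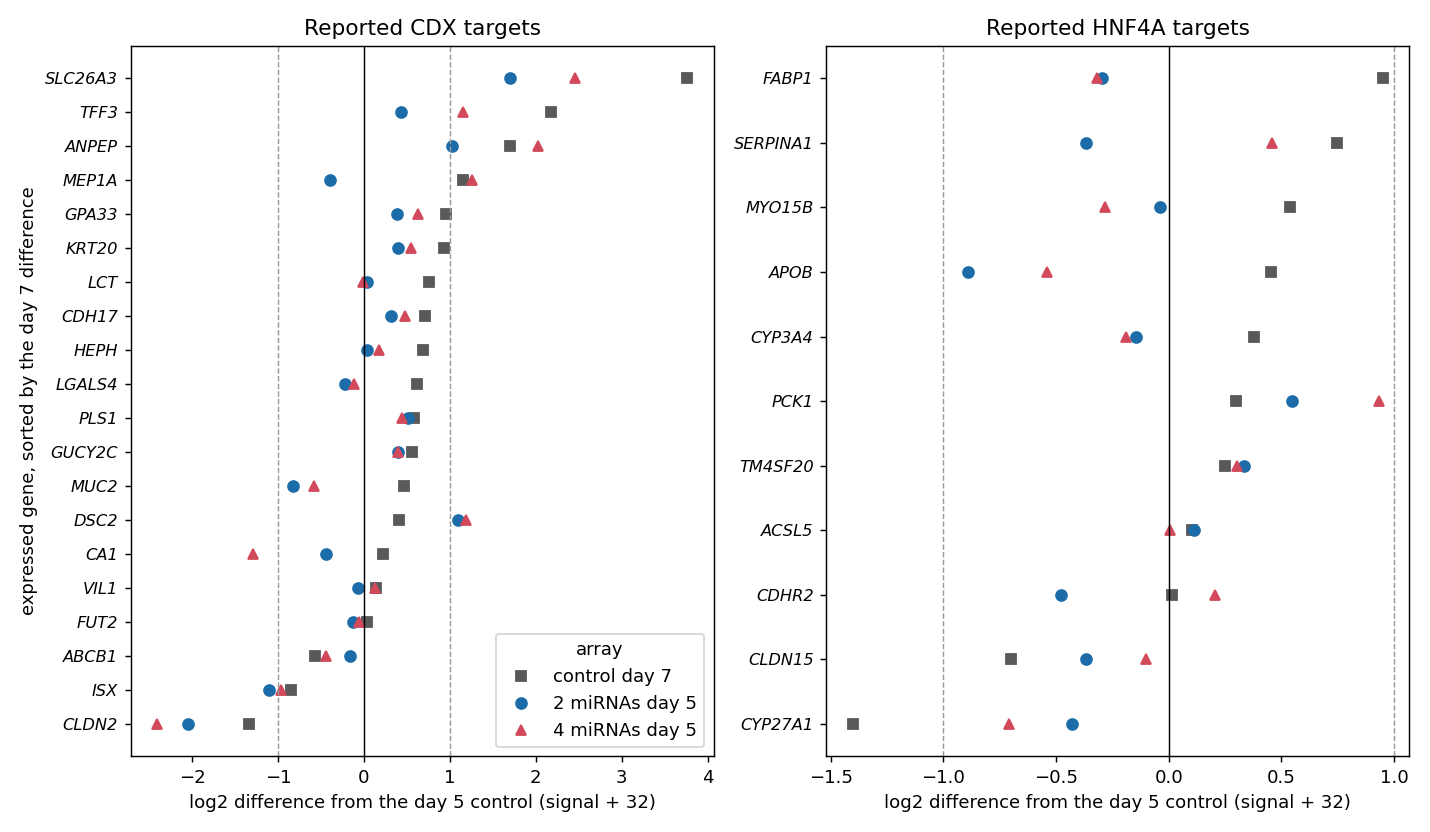
Log2 difference from the day 5 control (x axis) of the 20 expressed genes reported as CDX targets and the 11 expressed genes reported as HNF4A targets (y axis, sorted by the day 7 difference), on the day 7 control, 2-miRNA and 4-miRNA arrays; dashed lines mark 2-fold. Of the CDX list 17 lie above 0 on day 7, SLC26A3 farthest at 3.76.

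Of 27 genes reported as targets of HNF4A, 25 had a probe set and 11 were expressed; apolipoprotein genes other than APOB and the transfer protein gene MTTP did not pass the filter. On day 7, 9 of the 11 were above 0 with a median of 0.30, none past 2-fold higher, and CYP27A1, a sterol hydroxylase, was at least 2.88-fold lower. With 2 miRNAs 3 of 11 and with 4 miRNAs 5 of 11 were above 0, with medians of −0.30 and −0.10 and none past 2-fold. Of all genes, 49.3% were above 0 on day 7, 40.6% with 2 miRNAs and 41.0% with 4, with medians of −0.01, −0.16 and −0.15. Past 2-fold were 3.35% higher and 2.41% lower on day 7, 8.11% and 6.37% with 2 miRNAs, and 8.03% and 6.70% with 4. FABP1, the liver-type fatty acid binding protein, read 56903 on the day 5 control, 109961 on day 7, 46324 with 2 miRNAs and 45679 with 4 on its brightest probe set. The check of deposited signals against the highest value of an array covered members only. The day 7 array had a highest deposited value of 17966 and a scaling factor of 6.73, which puts FABP1 there close to that limit. What this does to its differences was not tested. With only IDs ending in plain _at, the miRNA arrays were above and not below day 7 for FABP1. Of 19 genes reported as targets of KLF4, KLF5, KLF9 or ELF3, 13 were expressed and 0 were 2-fold apart from the day 5 control on any of the other 3 arrays. Of the 13, 6 were above 0 with 2 miRNAs, 4 with 4 miRNAs and 6 on day 7, with medians of −0.01, −0.09 and −0.11. The 2 genes that follow thus do not stand for the list. CDKN1A, the cell cycle inhibitor that KLF4 induces, read 1487 on the day 5 control, 2167 on day 7, 1573 with 2 miRNAs and 1954 with 4. CCND1, the cyclin that KLF5 induces, read 893 and 704 on the controls and 1307 and 1398 on the miRNA arrays.

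Of 38 other transcription factors of endoderm and gut, 26 were expressed. On day 7, 17 of them were above 0 with a median of 0.28 and none was 2-fold apart from the day 5 control. With 2 miRNAs 4 were past 2-fold higher and 3 lower, with a median of −0.08, and with 4 miRNAs 5 were higher and 2 lower, with a median of 0.14. Of all genes, 49.3% were above 0 on day 7, with a median of −0.01. The medians over all genes were −0.16 and −0.15 with 2 and 4 miRNAs. Past 2-fold were 3.35% of all genes higher and 2.41% lower on day 7, 8.11% and 6.37% with 2 miRNAs, and 8.03% and 6.70% with 4. The factors counted as higher on the miRNA arrays include GATA4, which was dim on day 5 and whose bounds are 1.73-fold and 1.83-fold. ID2, an inhibitor of helix-loop-helix factors, read 1989 and 2115 on the controls against 5133 and 5389 on the miRNA arrays. SMAD4, the shared mediator of TGFβ and BMP signals, read 280 and 373 against 755 and 887, but with the median over its probe sets its differences from day 5 were 0.76 and 0.77 in place of 1.33 and 1.56, and that with 4 miRNAs was −0.10 in place of 1.18 against day 7. PPARGC1A, a coactivator of mitochondrial genes, was higher by 1.46 with 2 miRNAs (0.88 with the median over its probe sets). On the same representing probe set it was higher by 1.30 with 4 miRNAs and by 0.79 on day 7. HES6, a helix-loop-helix factor, went the other way, with 1147 and 928 on the controls and 444 and 386 on the miRNA arrays, and FOXA1, a pioneer factor of endoderm, was lower by 1.53 with 4 miRNAs (99.9 against 350). ATOH1, the factor that commits cells to the secretory lineage, read 505 and 504 on the controls and 222 and 316 on the miRNA arrays. SPDEF, of the same list, was not lower there: it read 315 and 428 on the controls and 429 and 573 on the miRNA arrays.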

How the data were processed

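Total RNA of T84 cells was labelled with biotin and hybridised to 4 arrays, 1 per group, per the labels. The authors deposited 1 intensity per probe set and array, on a linear scale. MAS5 is the tool named in the submitters' processing notes, and neither its version nor its scaling is given. The platform annotation pairs 41097 of 54675 probe sets with 1 gene symbol; those with several symbols (1801) or without a name here (11777) were not used.

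Arrays were brought to a common trimmed mean of 500 (2% left out at each end), 32 was added and log2 taken (Python 3.11.15, numpy 2.4.6, pandas 2.3.3). A probe set counted as expressed if its mean reached the median of the means, or if any array had it at the 75th percentile or higher. Of a gene's expressed probe sets, that of highest mean represented it. A probe set under the median signal of its array was taken as dim, and folds against it are lower bounds. Without replicates no test was made; genes that differed by 1 or more on the log2 scale, dim ones included, were counted in 6 comparisons. The code was tested on simulated data.

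The members, the lists and the rule for names were chosen with earlier results of these data known. Text names all members and 3 genes most like each of the 2 members with the largest range. Of each list it names genes from among the up to 4 per comparison furthest past 2-fold, but not all of these. The read-outs CDKN1A, CCND1, FABP1, MUC2, ATOH1 and SPDEF, and values of named genes in further comparisons, were added after their values were seen. Alternatives were other offsets, scalings, filters and probe set rules. The median over probe sets took all probe sets of an expressed gene, also those that did not pass the filter.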

Additional observations from a re-analysis of the deposited data

How the results depend on the processing

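Of 9 alternatives, 6 moved little: with offset 64, quantile normalization, running-median centring, the same median on every array, no filter and the 70th percentile filter, all 48 differences of the members moved by less than the SD between probe sets. The choice of probe set moved more. With the median over probe sets 1 member was 2-fold apart from the day 5 control with 2 miRNAs and 1 with 4, in both cases KLF5, and 1 from day 7 with 2 miRNAs. With offset 16 the counts were 1 for 4 miRNAs and 0 for day 7 against the day 5 control, and 1 and 1 for 2 and 4 miRNAs against day 7. With only IDs ending in plain _at, 6 members had a value and 0 were 2-fold apart on day 7, while KLF5 joined those past 2-fold with 2 and 4 miRNAs, at 3.47 and 3.65 against day 5 and 3.07 and 3.24 against day 7. KLF9 against day 7 turned to −0.38 with 2 miRNAs and −1.20 with 4 by the median over probe sets, and to −0.17 with 4 at offset 16, since another probe set then stood for the gene. ANPEP on day 7 turned to −0.51 and SMAD4 with 4 miRNAs against day 7 to −0.10 by the median over probe sets, SMAD4 also with plain _at IDs, where FABP1 against day 7 turned to 1.15 and 0.70. The same median on every array raised the median of all genes on the 4-miRNA array against day 5 from −0.15 to 0.12, and the shares past 2-fold from 8.03% higher and 6.70% lower to 12.6% and 2.97%. No paired analysis was possible because each group has 1 array. Signal near the array median limits KLF9 and the dimmer probe sets of HNF4G and GATA6.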

Other observations

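Paralogues of the members were a further group, with 14 of 25 expressed. With 2 miRNAs 12 of the 14 were above the day 5 control (median 0.41, 3 with a log2 difference of 1 or more), with 4 miRNAs 13 (median 0.50, 4 with such a difference) and on day 7 12 (median 0.38, none 2-fold apart). Of all genes, 40.6% were above the day 5 control with 2 miRNAs, 41.0% with 4 and 49.3% on day 7. The medians over all genes were −0.16, −0.15 and −0.01. At least 2-fold higher were 8.11%, 8.03% and 3.35% of all genes, and 6.37%, 6.70% and 2.41% were lower. KLF10, a Krüppel-like factor induced by TGFβ, read 2400 on the day 5 control and 3146 on day 7, against 5649 and 6247 with 2 and 4 miRNAs. KLF11, its close relative, read 306 and 601 on the controls and 699.6 and 792 on the miRNA arrays, but with the median over its probe sets its differences from day 5 were 0.30 and 0.31 in place of 1.12 and 1.29. GATA4, the GATA factor of the small intestine, was under the median on the day 5 control, so the folds with 2 and 4 miRNAs are bounded at 1.73-fold and 1.83-fold, and GATA2 was higher by 1.54 with 4. With the median over probe sets the log2 differences were 0.10 and 0.15 for GATA4 and 0.50 for GATA2.

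Of 15 listed cofactors of nuclear receptors and GATA factors, 9 were expressed. ZFPM1, a partner protein of GATA factors also called FOG1, read 61.9 on the day 5 control and 84.6 with 2 miRNAs, both under the array median, but 357 on day 7 and 356 with 4 miRNAs, and with the median over its probe sets its differences from day 5 were 0.97 and 1.21 in place of 2.05 and 2.05. NCOA2, a coactivator of nuclear receptors, read 653 and 959 on the controls and 1773 and 1693 on the miRNA arrays, but the median over probe sets gave differences from day 5 of 0.80 and 0.49 in place of 1.40 and 1.33.

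Markers of other epithelia were low, save for CPS1: 4 of 10 stomach markers, 1 of 6 annotated squamous markers and 2 of 7 liver markers were expressed, with summed signals between 586 and 1028, 212 and 396, and 993 and 2573. Of the liver markers CPS1, a urea cycle enzyme, read 2064 and 1484 on the controls and 1009 and 674 on the miRNA arrays. CPS1 was above the median of every array and made up most of the liver sum. Of the stomach markers, PGC was at least 2.75-fold higher on day 7 than on day 5 (0.27 on the log2 scale with the median over its probe sets), and GAST, dim on day 5, has no bound past 2-fold.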
